A study of Malus domestica with 99 samples.

Results

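In apple (Malus domestica) fruit cortex, 85 transcript entries fell after harvest in control fruit of 3 cultivars and stood well above control in fruit treated with 1-MCP. They are the members described here, out of 26306 RefSeq model transcripts (identifiers starting with XM_) measured in all 3 cultivars. The members were chosen from the values themselves. In each of Golden Delicious, Granny Smith and Fuji, a member had a log2 level of at least 5 at harvest, a control mean over days 7, 14 and 21 at least 1.5 log2 units below harvest, and a 1-MCP mean over the same days at least 1.5 log2 units above control. A log2 unit is a 2-fold change. The harvest and day 7, 14 and 21 values are therefore given as a description, and members were tested only on day 1 and 2 months, which played no part in the choice.

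Ethylene is the gaseous hormone that drives ripening of climacteric fruit such as apple. When ethylene binds its receptors, it switches them off, and the EIN3 family of transcription factors is then free to change the activity of downstream genes. 1-MCP (1-methylcyclopropene) occupies the same receptors and keeps the pathway silent, and it is used commercially to hold apples firm in storage. Genes whose transcripts fall during ripening and stay up under 1-MCP are commonly called ethylene-repressed, a name that describes their pattern and not a known mode of control.

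The series concerned the interplay of ethylene with auxin in the ripening of harvested apples. Untreated fruit of each cultivar was sampled at harvest, and fruit kept as control or treated overnight with 1-MCP gas in a closed container was sampled at days 1, 7, 14 and 21 and at 2 months. The labels give 3 libraries for each of 33 groups, 11 per cultivar, and call the 3 biological replicates without saying how the fruit was pooled. No storage temperature, orchard or harvest maturity was found in the labels, and each cultivar was represented by 1 time course. The deposited values were log2 group means with a floor of -1 (a 0 entered as 0.5), so the spread between replicate fruit could not be computed and the depth of the libraries is unknown. All p-values and standard errors (SE) below come from limma with the cultivar as the unit. In the main setting limma draws the spread of a transcript over the 3 cultivars toward a trend over all transcripts tested. The mean difference is weighed against that adjusted spread, which can be larger or smaller than the plain spread over cultivars.

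Markers of the tissue and of the treatment were looked at first. ACO1, which encodes the enzyme of the last step of ethylene synthesis, had a log2 level in control fruit at day 21 of 15.65 (Golden Delicious), 13.77 (Granny Smith) and 13.98 (Fuji). With 1-MCP the levels were 10.04, 6.03 and 6.38 in the same order, so ACO1 was lower under 1-MCP in each cultivar. Fruit cortex markers were found for 5 symbols in the tables of Golden Delicious and Granny Smith and for 3 in that of Fuji, and the log2 of their summed level ran from 11.13 to 13.95 at harvest, from 11.58 to 16.32 in control and from 8.04 to 14.72 in 1-MCP fruit. ACO1 is on this list, and PG1 and MALD1, also on it, were lower under 1-MCP at day 21 in each cultivar where they were measured. SUT1, a further cortex marker, was at 5.59, 5.75 and 5.77 in control and at 6.79, 7.14 and 7.27 in 1-MCP fruit at day 21, so the cortex markers did not all move in the same direction. AFS1, the farnesene synthase used as the marker of the skin, ranged from -0.33 to 6.25 at harvest, from 0.33 to 11.46 in control fruit and from -0.67 to 2.79 in 1-MCP fruit. SDH1, the remaining cortex marker, was measured in Golden Delicious and Granny Smith. At day 21 it was at 11.59 and 11.24 in control and at 11.15 and 10.32 in 1-MCP fruit. AFS1 thus differed with treatment, as did ACO1, PG1, MALD1, SUT1 and SDH1. None of these cortex and skin markers can therefore check the tissue apart from the treatment. In Golden Delicious and Granny Smith the log2 of the summed phloem proteins pp2-1 and pp2-3 was 7.36 to 8.68 at harvest, 6.54 to 9.74 in control and 6.26 to 9.36 in 1-MCP fruit. In Fuji pp2-3 alone was measured, at 7.05, 7.17 to 7.91 and 7.54 to 8.34. The part of cell composition in the results was not tested, and in bulk cortex fewer cells of a type and less RNA per cell cannot be told apart.

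Of the 10961 model transcripts with a harvest level of at least 5 in each cultivar, 306 (2.79%) fell by 1.5 or more in control fruit of all 3 cultivars, and 85 of those 306 (27.8%) were members. The remaining 221 missed the 1-MCP threshold in at least 1 cultivar. Taken alone, Golden Delicious had 274 transcripts meeting the criteria, Granny Smith 478 and Fuji 251. Golden Delicious and Granny Smith shared 144 of them, 52.6% and 30.1% of their own lists, and 85 of the 144 (59%) also met the criteria in Fuji. The members closest inside the limits were XM_008344473 with a harvest level of 5.12 in Golden Delicious, XM_008344062 with a control fall of 1.51 in Fuji and XM_008378055 with a 1-MCP difference of 1.5 in Fuji. The nearest transcripts outside them were XM_008395978 with a harvest level of 4.89, XM_008374674, whose control change of -1.5 in Granny Smith lay just short of the limit, and XM_008369975 with a 1-MCP difference of 1.49.

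A RefSeq gene table matched 57 of the 85 members to 57 genes, and 28 members were not matched. Each matched gene carried a locus number and no functional name, so members are given by transcript and locus identifier and no role is assigned to them. Among these 57 no pair lay within 10 protein-coding genes of one another in the gene order of that table, and the other 28 could not be placed. For 4 pairs of members the profiles had closely similar shapes over the 33 columns, with r between 0.987 and 0.993, and they could share reads. These were XM_008390937 with XM_008368835, XM_008366464 with XM_008376598, XM_008375913 with XM_008353935, and XM_008347631 with XM_008372985. The mean absolute difference in level was 0.267 to 0.496 log2 units within 3 of the pairs and 1.32 within the pair XM_008375913 and XM_008353935. Over all pairs of members the median r was 0.752, as a description of profiles that the choice itself made alike. The libraries did not keep strand, so reads from a transcript running antisense to a member would be counted with it.

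In control fruit the members went down mainly between day 1 and day 7. Their median log2 level in Golden Delicious was 7.10 at harvest, 6.74 at day 1, 4.10 at day 7, 3.01 at day 14, 2.77 at day 21 and 4.84 at 2 months. In Granny Smith the control medians were 8.60, 7.98, 6.01, 4.12, 3.82 and 5.58 at the same times, and in Fuji they were 7.85, 7.36, 5.19, 4.32, 4.69 and 4.89. The lowest median came at day 21 in Golden Delicious and Granny Smith and at day 14 in Fuji. The largest single step of the control course up to day 21 lay between day 1 and day 7 for 79 members of Golden Delicious, 47 of Granny Smith and 77 of Fuji. In Granny Smith 31 members took their largest step between day 7 and day 14, against 4 in Golden Delicious and 5 in Fuji. The step counts rest on values used in the choice and on 1 time course per cultivar. No share of all transcripts is given for them, and a difference in timing between cultivars was not tested. The median of the 10961 transcripts with a harvest level of at least 5 stayed between -0.07 and 0.04 log2 units from harvest in every group.

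Counted member by member, 2 members were at least 1.5 log2 units below harvest in control fruit of all 3 cultivars at day 1, 68 at day 7, 85 at day 14, 81 at day 21 and 55 at 2 months. In 1-MCP fruit the corresponding counts were 1, 7, 13, 15 and 13. The fall over days 7, 14 and 21 had a median over members of -3.92 for Golden Delicious, -3.75 for Granny Smith and -2.89 for Fuji. Over the same days 1-MCP fruit stood above control by a median of 3.10, 2.80 and 2.40 log2 units. These differences set the choice, and no test is given for them.

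**Figure D1:**
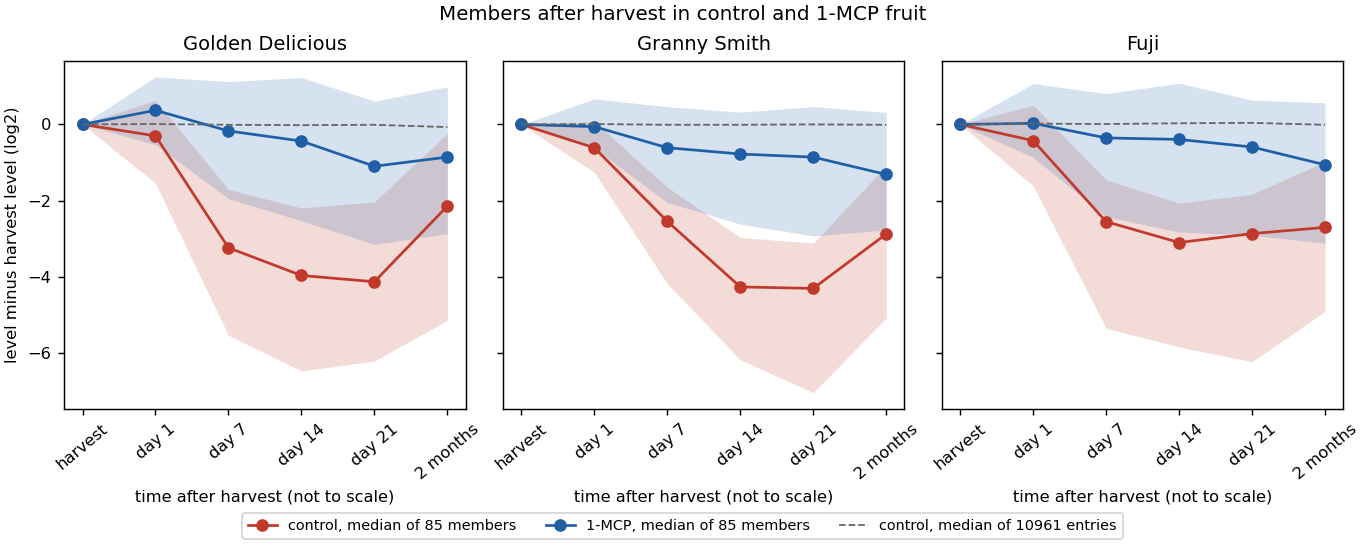
Level of the members relative to harvest (y axis, log2) over time after harvest (x axis, categories not to scale) in Golden Delicious, Granny Smith and Fuji. Red lines are control and blue lines 1-MCP medians over 85 members, shaded bands run from the 10th to the 90th percentile of members, and the dashed grey line is the control median of the 10961 transcripts with a harvest level of at least 5. Control medians reached -4.12, -4.30 and -3.09 at their lowest, while 1-MCP medians stayed at or above -1.31.

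Under 1-MCP the mean over days 7, 14 and 21 was above harvest for 29 members of Golden Delicious, 16 of Granny Smith and 24 of Fuji, and below it for the others, again as a description. Averaged over the cultivars, 22 members were above harvest and 63 below. The share of the control fall that 1-MCP fruit was spared, taken as the 1-MCP minus control difference over the control fall, had a median of 84.07% for Golden Delicious, 78.7% for Granny Smith and 81.22% for Fuji. Its mean over cultivars ran from 29.34% in XM_008378354 to 159.55% in XM_008383244, where a value over 100% means a level above harvest. Levels above harvest in 1-MCP fruit on each of days 7, 14 and 21 in every cultivar were found for 7 members, namely XM_008338715, XM_008344062, XM_008361468, XM_008366464, XM_008376598, XM_008379603 and XM_008383244. Another 7 were at least 1.5 log2 units below harvest in 1-MCP fruit at each of those days and cultivars, namely XM_008345879, XM_008378055, XM_008378354, XM_008381504, XM_008381783, XM_008392534 and XM_008395018. Some of both sets were singled out after their values were seen. From day 7 to day 21 the median member lost 0.88 log2 units in 1-MCP fruit of Golden Delicious (a change of -0.88), while the changes in Granny Smith and Fuji were -0.24 and -0.18. In Golden Delicious 80 of the 85 members were lower at day 21 than at day 7 under 1-MCP, and 65 were in each of Granny Smith and Fuji. The median changes in control fruit were -0.8 for Golden Delicious, -1.77 for Granny Smith and -0.32 for Fuji, with 63, 84 and 55 members lower. These days were used in the choice, and no share of all transcripts is given for these counts.

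**Figure D2:**
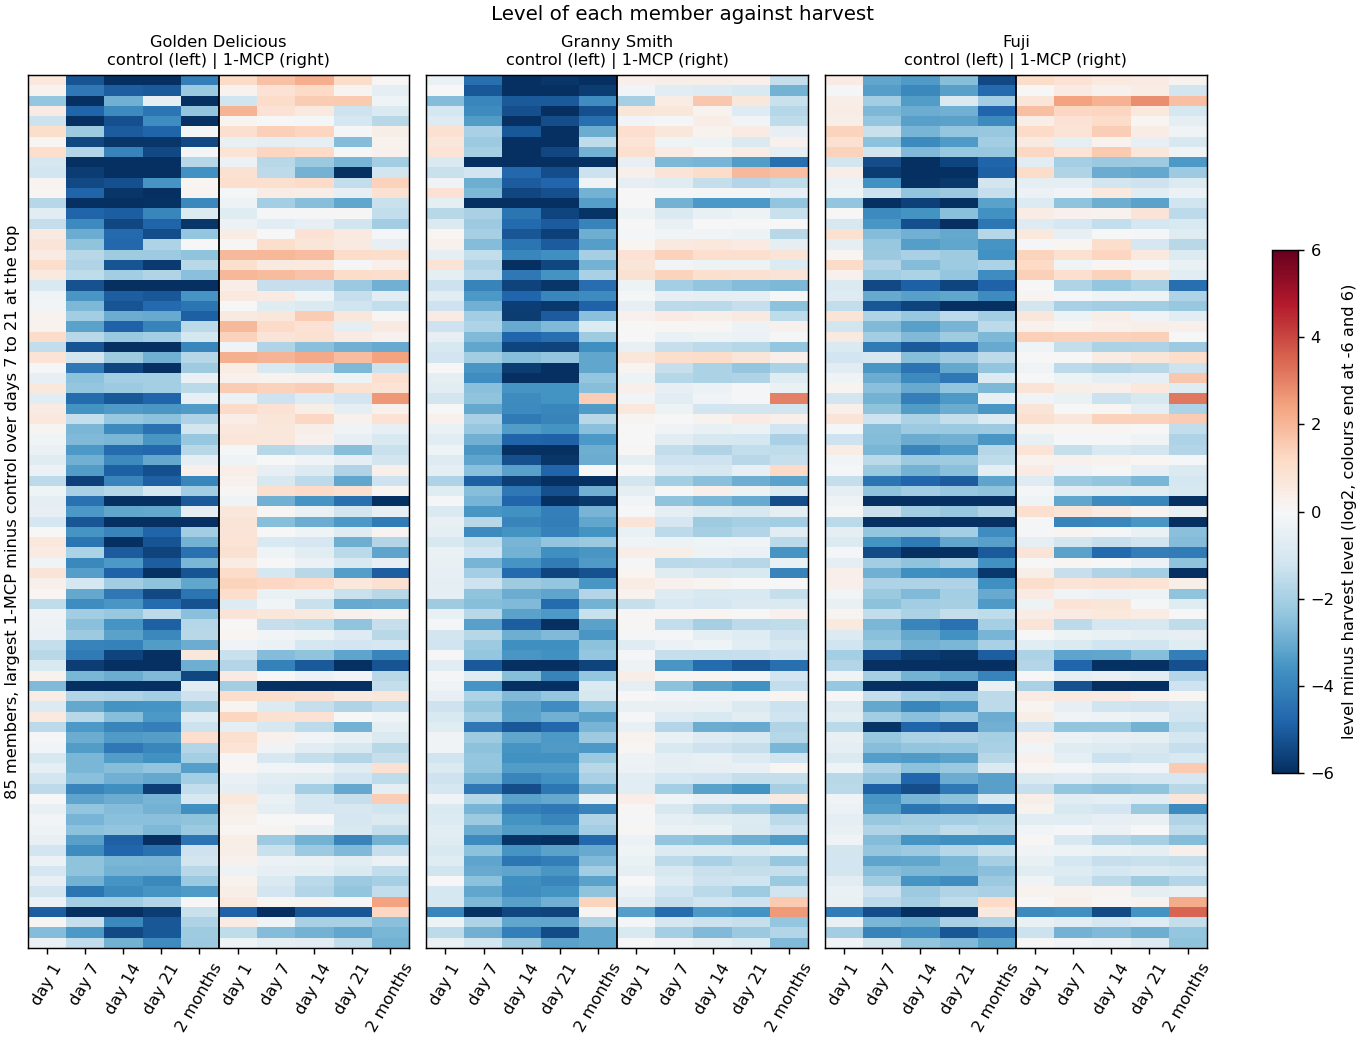
Level of each of the 85 members (rows) relative to harvest (colour, log2, ending at -6 and 6) at the 5 times after harvest in control (left side) and 1-MCP fruit (right side) of each cultivar. Rows run from the largest (5.73) to the smallest (1.66) mean 1-MCP minus control difference over days 7, 14 and 21. Control columns are blue from day 7 for nearly all rows, and a few rows turn red in 1-MCP fruit at 2 months.

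The largest separation between treatments over days 7, 14 and 21 was that of XM_008361468 (LOC103423394), with a mean log2 difference of 5.73 over cultivars. In Golden Delicious its log2 level was 7.49 at harvest, and at the later times in order (1, 7, 14 and 21 days, 2 months) it was 8.11, 2.30, 1.00, 1.27 and 3.36 in control fruit and 8.66, 9.26, 9.69, 8.61 and 7.57 in 1-MCP fruit. In Granny Smith it was 10.98 at harvest, then 10.57, 6.46, 4.78, 5.16 and 4.28 in control and 11.28, 11.36, 11.32, 11.28 and 9.55 in 1-MCP fruit. In Fuji it was 9.92 at harvest, then 10.40, 6.81, 6.50, 7.37 and 4.5 in control and 11.00, 10.78, 10.48, 10.41 and 10.13 in 1-MCP fruit. From day 7 on, control and 1-MCP fruit of the same cultivar were far apart at every time, and the 1-MCP levels stayed within 2 log2 units of harvest except in Golden Delicious at day 14.

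XM_008378228 (LOC103439652), XM_008383244 (LOC103444303), XM_008391128, XM_008386857 (LOC103447667), XM_008347631, XM_008371955 (LOC103433685) and XM_008372985 (LOC103434631) followed, with mean log2 differences from 5.02 down to 4.15 over those days. XM_008383244 did not fall steadily in Golden Delicious control fruit, where it was 7.53 at harvest and 5.19, 1.38, 4.66, 6.99 and 1.33 at the 5 later times. In 1-MCP fruit of Golden Delicious it was 6.33, 8.63, 9.04, 9.09 and 7.27, so the groups were closest at day 1 and day 21. In Granny Smith its control levels were 4.56, 3.22, 2.11, 2.08 and 3.40 against 5.13, 7.56, 8.77, 7.80 and 5.82 in 1-MCP fruit, and in Fuji they were 8.06, 5.60, 4.36, 6.82 and 5.63 against 8.45, 10.12, 9.80, 10.49 and 9.48. The 1-MCP level was the higher at all 5 times in each cultivar. That held for 56 of the 85 members. Days 7, 14 and 21 were used in the choice, and on them all 85 members were higher in each cultivar. The 56 are thus the members that were also higher at both day 1 and 2 months, and no share of all transcripts is given for them.

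At day 1, before most of the control fall, 41 of the 85 members (48.2%) were already higher in 1-MCP fruit than in control fruit and none was lower, by limma at an adjusted p under 0.05. At an unadjusted p under 0.05, 64 members differed in either direction. No share of all transcripts at that unadjusted cutoff is given, here or below, so such counts have no baseline. Among all 20999 transcripts tested, 4.48% were higher and 4.09% lower, and among the 10961 transcripts with a harvest level of at least 5, 5.98% were higher. The 221 transcripts that fell in control fruit but missed the 1-MCP threshold lay between, with 23.1% higher. The difference was above 0 in all 3 cultivars for 68 members (80%), against 23.3% of all transcripts tested. The median log2 difference over members was 0.57, a ratio of 1.48, with 0.71 for Golden Delicious, 0.55 for Granny Smith and 0.43 for Fuji, while the median over all transcripts was 0. The 41 that rose had mean differences from 0.36 to 1.57.

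The largest of these day 1 differences was that of XM_008391128. Its log2 level in control and 1-MCP fruit at day 1 was 6.53 and 8.08 for Golden Delicious, 6.15 and 7.95 for Granny Smith, and 6.64 and 8.0 for Fuji. The 3 control and the 3 1-MCP levels did not overlap, and the mean difference was 1.57 (SE 0.14, limma adjusted p = 0.00125, higher in 3 of 3 cultivars). In 1-MCP fruit this transcript was above its harvest levels of 6.03, 7.22 and 6.20 in each cultivar at day 1. XM_008344837 (LOC103405827) rose from 6.59 to 8.38, from 9.79 to 11.01 and from 4.91 to 6.42 between control and 1-MCP fruit of Golden Delicious, Granny Smith and Fuji. Its mean difference was 1.51 (SE 0.15, limma adjusted p = 0.00218), although its levels differed more between cultivars than between treatments.

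XM_008354880 was higher under 1-MCP by 1.71, 1.28 and 1.35 log2 units at day 1 in Golden Delicious, Granny Smith and Fuji (mean 1.45, limma adjusted p = 0.00133). XM_008379603 (LOC103440905) was higher by 1.31, 1.84 and 1.17 (mean 1.44, limma adjusted p = 0.0019). Of the pair with closely similar profiles, XM_008376598 (LOC103438058) was higher by 1.46, 1.45 and 1.2 and XM_008366464 by 1.4, 1.5 and 1.17. Both of that pair passed the test, with limma adjusted p-values of 0.000109 and 0.000181, and they may not be independent measurements. Each of these 4 transcripts was thus higher by more than 1 log2 unit in 3 of 3 cultivars.

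Several members with large later differences showed little at day 1. XM_008378228 was at 8.94, 11.16 and 8.43 in control fruit and at 8.95, 11.05 and 8.52 in 1-MCP fruit of Golden Delicious, Granny Smith and Fuji, with a mean difference of 0.00 (SE 0.07, limma adjusted p = 0.999). XM_008371955, XM_008372985 and XM_008347631 had mean day 1 differences of -0.26, -0.08 and -0.06, with both signs among the cultivars. All 4 were among the 8 with the largest differences over days 7, 14 and 21. The day 1 count rested on the settings of the test: limma without its trend and robust options called none of the members (59 at an unadjusted p under 0.05), and without the filter on low levels it also called none (49 at an unadjusted p under 0.05). It was 25 without Golden Delicious, 32 without Granny Smith and 23 without Fuji. Counts under altered settings, here and below, have no share of all transcripts under the same setting beside them.

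**Figure D3:**
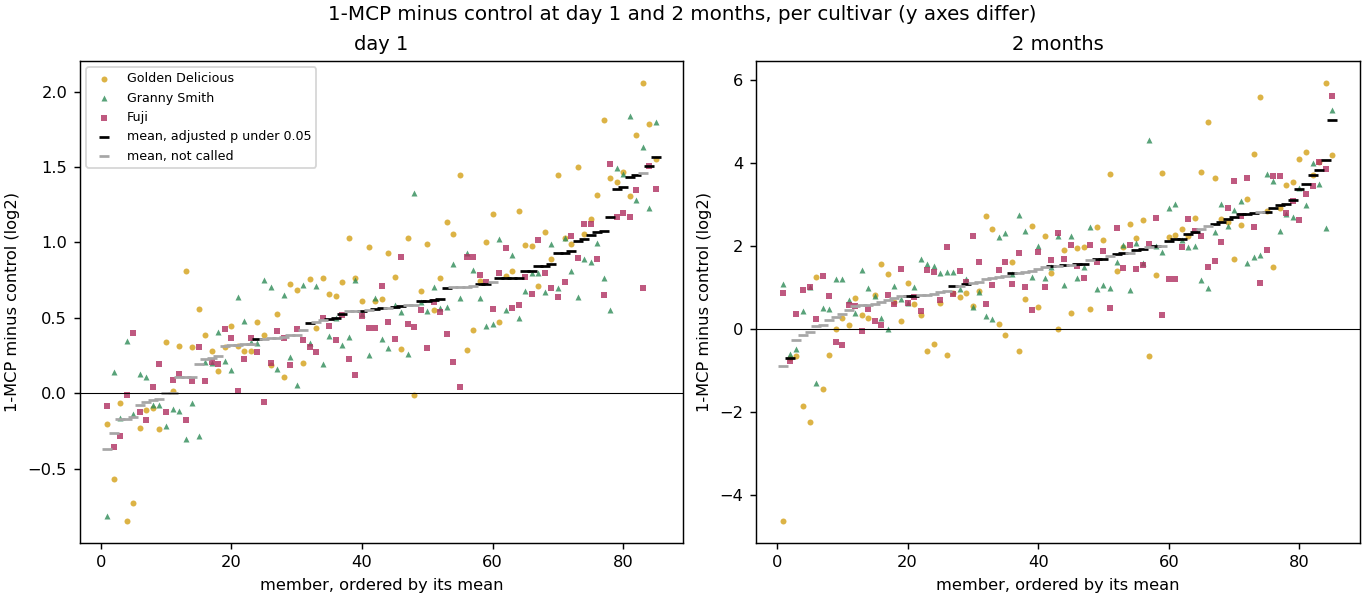
Difference between 1-MCP and control fruit (y axis, log2, axes differ) at day 1 (left) and 2 months (right) for each of 85 members, ordered along the x axis by its mean. Symbols are the 3 cultivars, black dashes are means with a limma adjusted p under 0.05 and grey dashes are the other means. At day 1 the means run from -0.37 to 1.57, and at 2 months from -0.90 to 5.04 with the most negative single values in Golden Delicious.

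After 2 months, 39 of the 85 members (45.9%) were higher in 1-MCP than in control fruit and 1 was lower, by limma at an adjusted p under 0.05. Over all transcripts tested, 4.37% were higher and 3.81% lower. Among the 221 control-falling transcripts outside the list, 12.2% were higher and 3.62% lower. The median log2 difference over members was 1.51, a ratio of 2.85, and it was nearly equal in the cultivars at 1.5 for Golden Delicious, 1.5 for Granny Smith and 1.47 for Fuji. The median over all transcripts was 0.07. The Fuji 1-MCP column at this time is a mean of 2 libraries, not 3. The difference was above 0 in all 3 cultivars for 66 members, against 29.8% of all transcripts tested. Of the 39, 23 had also been higher at day 1 and 16 had not passed then, while 18 that were higher at day 1 did not pass at 2 months. No share of all transcripts is given for this overlap, so it is not read as particular to the members.

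XM_008361468, whose levels are given above, had the largest difference at 2 months, with 4.21 for Golden Delicious, 5.27 for Granny Smith and 5.63 for Fuji. The mean was 5.04 (SE 0.30, limma adjusted p = 0.00488, higher in 3 of 3 cultivars), a ratio of 32.8. XM_008383244 followed with a mean of 4.07 (SE 0.66, limma adjusted p = 0.0344), and its cultivar values were more spread, at 5.94, 2.43 and 3.85. The 5.94, from Golden Delicious, rests on a low control level of 1.33.

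XM_008338715 (LOC103400035) had similar differences in the 3 cultivars. At 2 months its control levels were 4.42 (Golden Delicious), 5.63 (Granny Smith) and 5.26 (Fuji), and its 1-MCP levels 8.44, 9.12 and 9.30. All 3 1-MCP levels exceeded all 3 control levels, and they lay at or above the harvest levels of 7.55, 9.12 and 8.97. The mean difference was 3.85 (SE 0.16, limma adjusted p = 0.00174). In control fruit it went on falling from day 21, where it had been 5.15, 6.81 and 7.09.

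XM_008381043 (LOC103442270) was close to the floor in control fruit of Golden Delicious and Fuji at 2 months, at -0.67 and 1.2 against 3.06 and 4.64 in 1-MCP fruit, and at 3.95 against 7.94 in Granny Smith. Its mean difference was 3.72 (SE 0.25, limma adjusted p = 0.00546). XM_008386857 was higher by 4.27, 2.98 and 3.26 (mean 3.50, limma adjusted p = 0.008), and XM_008379603 by 4.11, 3.41 and 2.63 (mean 3.38, limma adjusted p = 0.0103). Both were higher in 3 of 3 cultivars. The Golden Delicious control level of XM_008386857 at 2 months was 0.53, also close to the floor, so its 4.27 rests on a low value.

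XM_008345879 (LOC103406907) was the member that was lower at 2 months. Its control levels ran down from 12.15 at harvest to 2.72 at day 21 (Golden Delicious), from 13.17 to 5.49 (Granny Smith) and from 12.69 to 3.20 (Fuji), and came back to 11.45, 12.32 and 12.23 at 2 months. In 1-MCP fruit the levels at day 21 were 5.23, 9.56 and 6.36, and at 2 months they were 10.74, 11.71 and 11.46. The return was thus seen under both treatments, and at 2 months the 1-MCP level lay 0.71, 0.61 and 0.77 below control. The mean difference was -0.70 (SE 0.12, limma adjusted p = 0.0343, lower in 3 of 3 cultivars).

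Negative differences at 2 months were most frequent in Golden Delicious. The difference between 1-MCP and control fruit was below 0 for 15 members there, against 4 in Granny Smith and 4 in Fuji. Over all transcripts tested the median difference was 0.12 for Golden Delicious, 0.02 for Granny Smith and 0.04 for Fuji. The share of all transcripts below 0 in each cultivar is not given, so the counts are not read as particular to the members. XM_008385435 (LOC103446346), chosen after its values were seen, had a control level of 7.51 and a 1-MCP level of 2.88 in Golden Delicious, a difference of -4.63. The levels in Granny Smith were 5.31 and 6.38, and those of Fuji 1.72 and 2.58. Control fruit of Golden Delicious had been at the log2 level 0.00 at day 21, so the high value was a return above its harvest level of 6.85. Whether cultivars differed at 2 months was not tested, since each had 1 value per treatment.

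The 2-month count also depended on single cultivars. Without Granny Smith limma called 1 member higher, although 54 had an unadjusted p under 0.05, and without Fuji it called 16, while without Golden Delicious it called 47. With no filter on low levels it called none (49 at an unadjusted p under 0.05), and without the trend and robust options 17.

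**Figure D4:**
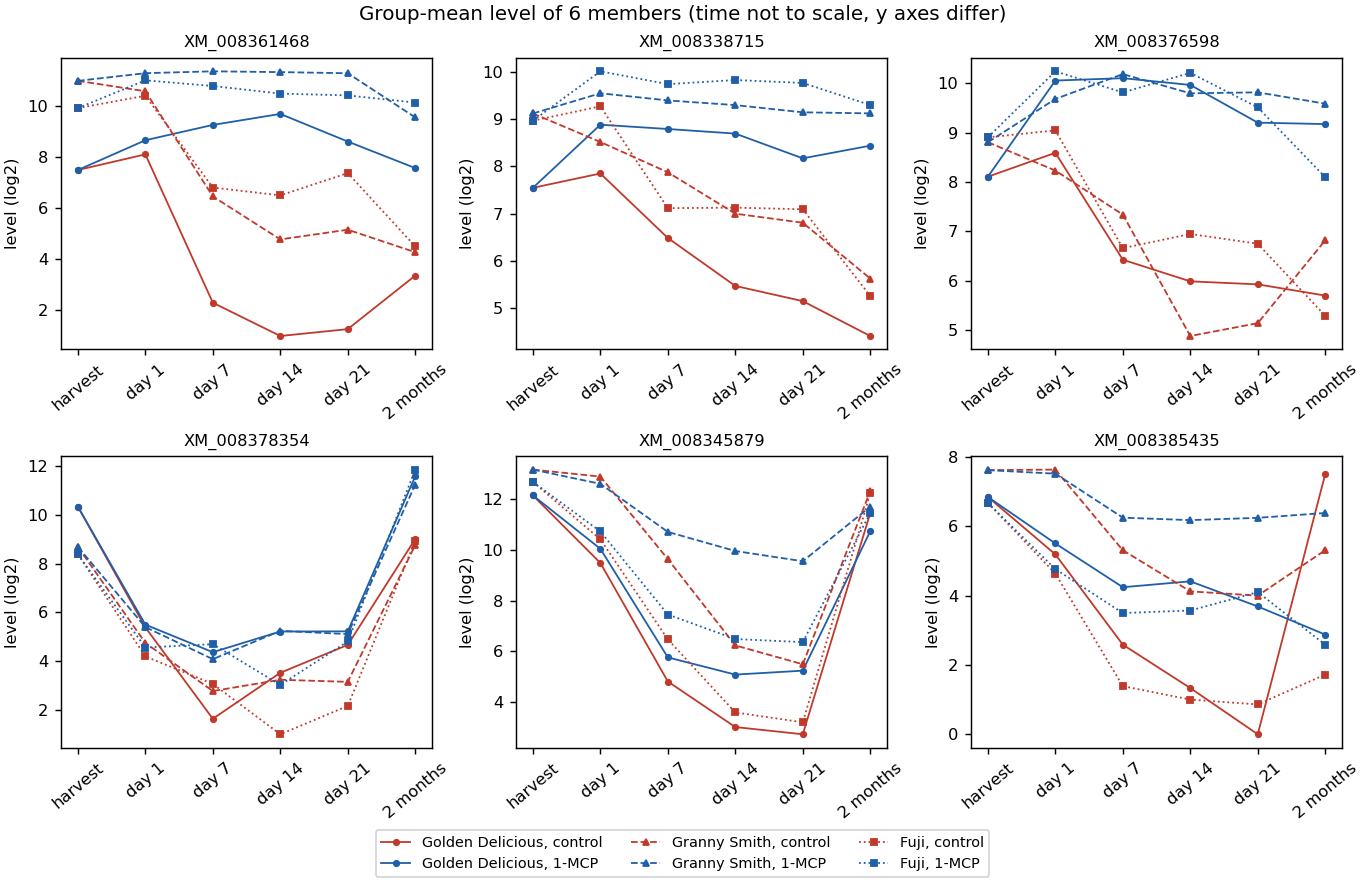
Log2 level (y axis, axes differ) over time after harvest (x axis, not to scale) of 6 members, in control (red) and 1-MCP fruit (blue) of Golden Delicious (solid), Granny Smith (dashed) and Fuji (dotted). Each point is 1 group mean as deposited. XM_008361468, XM_008338715 and XM_008376598 stayed up under 1-MCP to 2 months, XM_008378354 and XM_008345879 came back by 2 months under both treatments, and XM_008385435 came back in Golden Delicious control fruit to 7.51.

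Between day 1 and 2 months most members fell in both treatments. In control fruit 54 of 85 were lower at 2 months than at day 1 and 1 was higher, by limma at an adjusted p under 0.05, against 6.07% lower and 3.99% higher of all transcripts. The median log2 change was -2.31. In 1-MCP fruit 49 were lower and 5 higher, against 8.81% and 7.8% of all transcripts, with a median change of -1.18. The 221 control-falling transcripts outside the list had 27.1% lower and 0.452% higher in control fruit, and 51.6% lower and 1.36% higher in 1-MCP fruit, where their share lower was close to the 57.6% of members. In both treatments 40 members were lower. These 2 comparisons and the 1-MCP differences at day 1 and 2 months are built from the same 4 groups per cultivar, so they are not separate evidence. Without Golden Delicious limma called 33 members lower in control fruit and none in 1-MCP fruit (55 at an unadjusted p under 0.05 in 1-MCP fruit). Without Granny Smith it called none in control fruit (65 at an unadjusted p under 0.05), and without Fuji none in control fruit (61 at an unadjusted p under 0.05) and 12 in 1-MCP fruit. With no filter on low levels it called none in either treatment (60 and 51 at an unadjusted p under 0.05), and without the trend and robust options 21 and 13.

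The 5 members that were higher at 2 months than at day 1 in 1-MCP fruit were XM_008378354 (LOC103439750), XM_008373164 (LOC103434813), XM_008391482, XM_008377614 (LOC103439064) and XM_008383244, and all but the last are named because their count was small. XM_008378354 moved the most. It had dropped from harvest levels of 10.34, 8.69 and 8.39 to 5.39, 4.75 and 4.19 in control fruit and to 5.5, 5.4 and 4.56 in 1-MCP fruit by day 1, in the order Golden Delicious, Granny Smith and Fuji. It was the member that had fallen by 1.5 or more at day 1 in each cultivar under both treatments. At 2 months it was at 9.02, 8.77 and 8.95 in control fruit and at 11.59, 11.25 and 11.87 in 1-MCP fruit, so it came back to within 1.5 log2 units of harvest, or above it, in both. The rise from day 1 was 4.13 in control (SE 0.27, limma adjusted p = 0.0101) and 6.42 in 1-MCP fruit (SE 0.31, limma adjusted p = 0.00227), in 3 of 3 cultivars each.

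XM_008373164 was at 11.72, 11.58 and 11.08 at day 1 and at 14.69, 14.78 and 14.48 at 2 months in 1-MCP fruit, a mean rise of 3.19 (SE 0.13, limma adjusted p = 0.0017). In control fruit it went from 11.43, 10.65 and 10.18 at day 1 through 7.26, 8.13 and 7.87 at day 21 to 11.56, 13.20 and 10.84 at 2 months, a mean change of 1.11 that did not pass the test (limma adjusted p = 0.192). Its 1-MCP levels at 2 months exceeded harvest by more than 2 log2 units in each cultivar. The mean rises of XM_008391482, XM_008377614 and XM_008383244 in 1-MCP fruit were 2.10, 0.90 and 0.89. At 2 months 11 members were above their harvest level in 1-MCP fruit of all 3 cultivars, and 1 (XM_008391482) was in control fruit. The harvest level was used in the choice and no share of all transcripts is given, so these counts are a description.

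The 1-MCP difference grew from day 1 to 2 months in 16 of 85 members and shrank in none, tested as the difference of differences (limma, adjusted p under 0.05), against 1.12% and 1.18% of all transcripts and 3.17% and 2.71% of the 221 control-falling transcripts outside the list, with 45 members at an unadjusted p under 0.05 in either direction. The median growth over members was 0.75 log2 units, against 0.07 over all transcripts. XM_008361468 grew by 4.42 (SE 0.27, limma adjusted p = 0.00707) and XM_008338715 by 2.92 (SE 0.19, limma adjusted p = 0.00707). XM_008381043, XM_008386857 and XM_008378228 grew by 3.02, 2.80 and 2.71. In these 5, the mean change between the times lay between -5.64 and -3.44 log2 units in control fruit and between -1.53 and -0.53 in 1-MCP fruit. Without Golden Delicious limma called 33 members, without Granny Smith 10 and without Fuji none (39 at an unadjusted p under 0.05). With no filter, and without the trend and robust options, it called none (42 at an unadjusted p under 0.05 in each case).

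**Figure D5:**
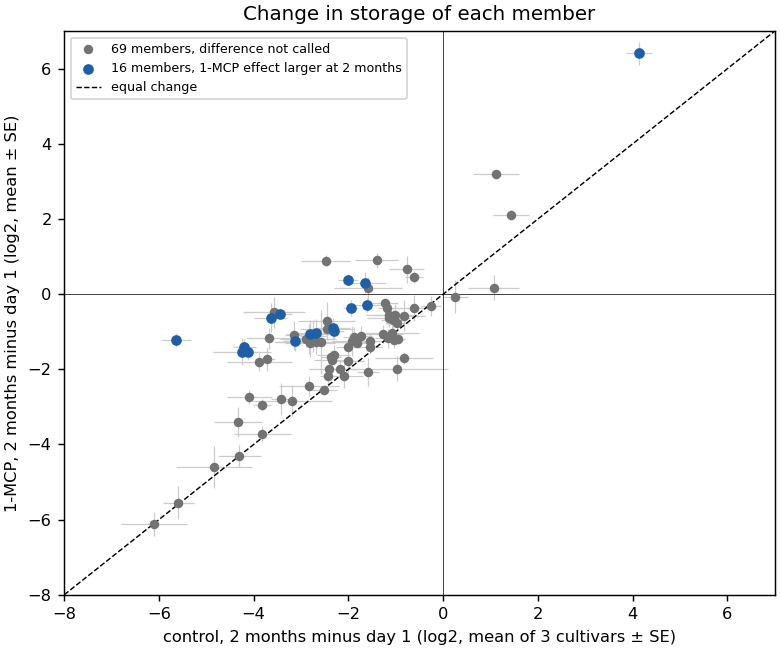
Mean log2 change over 3 cultivars from day 1 to 2 months in control (x axis) and 1-MCP fruit (y axis) for each of 85 members. Bars are the standard errors of limma, from the adjusted spread. The dashed line marks equal change, and the 16 blue points are members whose 1-MCP difference was larger at 2 months than at day 1 (limma, adjusted p under 0.05). Most points lie in the lower left above the line, and XM_008378354 lies apart at 4.13 and 6.42.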

How the data were processed

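The labels list 99 libraries of fruit cortex RNA, made without strand information, per the labels' protocols. The submitters' processing notes name STAR 2.5.1a, a read aligner, and HTSeq, a read counter. The genome build is not given in the sources used here. The deposited tables hold log2 group means, a measure the authors named FPKM. Values with a log2 under 2.5 are those of whole numbers (relative tolerance 0.0003) averaged over 3 libraries in 31 columns and over 2 libraries in the Fuji columns for control fruit on day 14 and for treated fruit at 2 months. The means thus hold 97 of the libraries. Whether the levels were scaled by length or by depth is not known from these values, so they are not compared between genes.

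Entries that reached a log2 of 2 in 3 or more columns (20999, including all 85 members, which pass through their harvest columns) were tested. One difference per cultivar entered limma 3.58.1 in R 4.3.3 (lmFit with an intercept, eBayes with trend and robust options, two-sided, Benjamini-Hochberg over all 20999). The script was tested on simulated data. Alternatives were other filters, 4 added to the linear values, median centring, plain eBayes, leaving out each cultivar or day, other thresholds and, added after seeing the data, 1 entry of each pair with r over 0.98 left out.

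Named genes are the 8 members with the largest difference over days 7, 14 and 21, the 6 largest rises at day 1 and at 2 months among those called, and any called fall. Further rules, by functional keyword, by described marker and by promoter motif, could not be applied, since the gene table (RefSeq, assembly GDT2T_hap1, used for names and neighbours) gives no descriptions or sequences. Of the markers, those matched by symbol or synonym are given. The members and lists were chosen with earlier results of these data known.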

Additional observations from a re-analysis of the deposited data

Results flagged for a closer look

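The 1-MCP difference changed between day 1 and 2 months in 16 members by the test of the difference itself (limma, adjusted p under 0.05). The growth, in log2 units, was 4.42 in XM_008361468, 3.02 in XM_008381043, 2.92 in XM_008338715, 2.80 in XM_008386857, 2.71 in XM_008378228 and 2.57 in XM_008393737. It was 2.39 in XM_008344062, 2.29 in XM_008378354, 1.95 in XM_008379603, 1.87 in XM_008362669, 1.76 in XM_008366464 and 1.65 in XM_008376598. The smallest were 1.59 in XM_008342230, 1.41 in XM_008379149, 1.32 in XM_008343222 and 1.31 in XM_008368018. Each was positive in 3 of 3 cultivars.

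At 2 months, 4 members were at least 1 log2 unit lower under 1-MCP in Golden Delicious and higher in the other cultivars. The Golden Delicious difference was -4.63 in XM_008385435, -2.26 in XM_008381504, -1.85 in XM_008355426 and -1.46 in XM_008381783. In Granny Smith the same members differed by 1.07, 1.02, 0.44 and 0.50, and in Fuji by 0.86, 1.01, 0.94 and 1.27. The difference between cultivars was not tested, since each had 1 value per treatment.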

How the results depend on the processing

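No paired analysis was possible because the tables hold group means and no replicate columns. With no filter on low levels limma called 0 members in each of the 5 comparisons, while 49 (day 1), 49 (2 months), 60 (control in storage), 51 (1-MCP in storage) and 42 (growth of the difference) had an unadjusted p under 0.05. Without the trend and robust options the counts called in the main direction were 0 at day 1, 17 at 2 months, 21 in control and 13 in 1-MCP fruit in storage, and 0 for the growth of the difference, with 59 and 42 members at an unadjusted p under 0.05 at day 1 and for the growth. Leaving out 1 cultivar gave 23 to 32 at day 1, 1 to 47 at 2 months, 0 to 33 and 0 to 34 in storage, and 0 to 33 for the growth. With 2 cultivars the spread of a transcript, before limma adjusts it, is taken from a pair of values. The stricter filter (log2 of at least 4), 4 added to the linear values, median centring and leaving out 1 of each pair with r over 0.98 kept all 5 counts within 1.5 times. None of these counts has the share of all transcripts under the same setting beside it. The causes of these changes were not tested.

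Thresholds of 1 and 2 in place of 1.5 gave 193 and 38 members, and harvest levels of at least 3 and 7 gave 131 and 42. Leaving out 1 cultivar gave 117 to 159. Values of named members were compared under altered settings of the test, not under these changes to the choice. The settings were the other filters, 4 added to the linear values, median centring, plain eBayes and each cultivar left out. Among 256 such values, 193 kept their side of the adjusted p threshold, 56 lost it, 4 passed it newly, 3 without a call moved, and none that was called reversed. Group means limit all results: the counting and fruit-to-fruit error behind each value is unknown.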
